A study of Mus musculus with 7899 samples.

Results

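This account covers the genes that carry new secretory proteins into the endoplasmic reticulum (ER) and the genes of the vesicle coats that move them on to the Golgi, in β cells of female C57BL/6J mice before, during and after pregnancy. The members are the genes whose symbol belongs to the signal recognition particle and its receptor (Srp genes, Srpr, Srprb), the Sec61 translocon (Sec61 genes, Sec62, Sec63), the translocon-associated protein complex (Ssr1 to Ssr4), the signal peptidase (Spcs and Sec11 genes), the COPII coat (Sec13, Sec16, Sec22, Sec23, Sec24 and Sec31 genes), the COPI coat (Cop genes and Arcn1) or the p24 family (Tmed genes). The choice used names only and no measured value, but earlier results of these data were known when it was made. It found 59 members among 21767 genes: 9 of the signal recognition particle and its receptor, 6 of the translocon, 4 of the translocon-associated complex, 5 of the signal peptidase, 15 of COPII, 9 of COPI and 11 of the p24 family.

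RNA was read from 7897 single sorted cells labelled as β cells, and the reads of each group and replicate were summed to 100 libraries in 48 groups. The time course held mice on standard diet at 10 stages from G0 (gestation day 0) to G18.5, with G3.5, then G5.5 with G6.5, then steps of 2 days from G8.5. It went on to 2, 7 and 14 days after delivery (P2, P7, P14), each with a group marked L and a group marked NL, read here as lactating and not lactating. Other mice were labelled Acss2 knockout or Acss2 WT (wild type) and Stat3 knockout or Stat3 WT at G0, G14.5 and G18.5, or p300 knockout or p300 WT at G0 and G14.5, all on standard diet. A high-fat-diet set held mice at G0, G14.5 and P7NL without a genotype label, Acss2 knockout and WT mice on high-fat diet at G0 and G14.5, and Acss2 WT mice on standard diet at G14.5. Cultured islets were kept for 4 days in 20% human maternal serum or human normal serum with 5 μM A485, an inhibitor of the acetyltransferases p300 and CBP, with 20 μM nifuroxazide, an inhibitor of STAT3 signalling, or with vehicle DMSO. The sources used here give no ages, no knockout alleles or Cre drivers and no sort markers. There were 3 replicates at P14L and G18.5 and, on either diet, at G14.5 without a genotype label, and 2 in each of the other 44 groups.

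Most secreted proteins, insulin among them, enter the ER while they are being made. The signal recognition particle binds the signal peptide as it leaves the ribosome, its receptor docks the ribosome at the Sec61 channel, the translocon-associated complex sits beside that channel, and the signal peptidase cuts the signal peptide off. Folded cargo then leaves the ER in vesicles coated by COPII, COPI vesicles bring escaped ER proteins and receptors back from the Golgi, and p24 proteins cycle between both compartments as cargo receptors. In β cells this route carries preproinsulin and proinsulin, so its capacity bears on how much insulin a cell can make.

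Libraries held 13273435 to 181405413 reads from 21 to 160 cells each, and the members took 0.581% to 1.33% of the reads in the 6 tables that hold all 59 of them, and 0.529% to 0.868% in the Stat3 table, which holds 47. Ins1 and Ins2, the insulin genes that define β cells, took 33.04% to 69.8% of the reads. Reads of the targeted genes remained in the knockouts: Acss2 stood at 10.53 against 22.03 CPM (counts scaled to library size) at G0 and Ep300, which encodes p300, at 13.9 against 30.5 CPM at G0, both means of 2 libraries, and neither passed the test (adjusted p = 1 and 0.0524). Reads outside a deleted part check nothing, and the sources used here do not name the deleted part. A gene was called higher or lower when its adjusted p from edgeR's quasi-likelihood test with Benjamini-Hochberg adjustment over all genes tested was under 0.05. The p-values measure the spread between the numbered replicates, most of them labelled as biological. Because each library is a sum over sorted cells, fewer cells with much of an RNA and less of it in every cell cannot be told apart. Of the 59 members, 58 were tested in the time course; Tmed11 had no read in any of the 100 libraries.

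At G0 subunits of the channel and of its partner complexes were the most abundant members. Sec61b, the β subunit of the channel, led with 415 ± 12.4 CPM per kilobase of gene length (SD, n = 2), followed by Sec61g with 305 ± 36.03, Ssr2 with 199.7 ± 2.66 and Ssr4 with 177 ± 19.8. Srp14 (169 ± 26.4), Tmed3 (167 ± 26.5) and Spcs1 (150.99 ± 29.8 CPM per kilobase) came next and lay within each other's spread. The COPII coat stood lower: its highest member was Sec13 with 53.2 ± 8.94 CPM per kilobase, and Sec24a, Sec23a, Sec22c and Sec31b lay between 4.16 and 0.195. The paralogs Sec61a2, Copg2 and Sec16b stood at 4.59, 4.88 and 5.06 CPM per kilobase, against 68.97 for Sec61a1, 27.9 for Copg1 and 7.92 for Sec16a.

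At G14.5 the members rose in all 7 classes. Of 58 tested, 32 were higher than at G0 and 0 were lower, while 5.96% of all 15373 genes tested were called higher there. The members' median log2 fold change was 0.50 against 0.005 over all genes, and 50 of 58 were positive. Summed over all members, CPM went from 7046 ± 369 at G0 (SD, n = 2) to 10428 ± 909 at G14.5 (n = 3). Counted against the reads that are not Ins1 or Ins2, the members took 1.67% at G0 and 2.31% at G14.5. The signal peptidase (5 of 5) and the translocon-associated complex (4 of 4) were called throughout, the COPII coat in 4 of 15. Leaving out G0 replicate 1 lowered the count from 32 to 15, and leaving out any other single library gave 22 to 33. At the same time summed markers of α cells went from 1596 to 3161 CPM at G0 to 968 to 1572 at G14.5 (3 of 8 markers lower, Slc7a2, Gc and Ttr), and those of δ cells from 268 to 782 to 42.8 to 154.9 CPM (Sst lower, 1 of 5). Of 7 β-cell markers 1, G6pc2, was higher. Of 10 hepatocyte markers 2, Tat and Ttr, were lower, with sums of 977 to 1419 CPM at G0 and 438 to 501 at G14.5. The ductal markers Spp1 and Muc1 were higher, and 0 of the 12 acinar, 6 endothelial, 6 stromal, 8 immune, 4 plasma-cell and 2 PP-cell markers were called. Pdgfrb, Dcn and Lum were at 0 reads in every G0 and G14.5 library. Without the cells that had over 5% of their reads in Gcg, Sst, Ppy and Pyy the count of members was again 32.

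**Figure D1:**
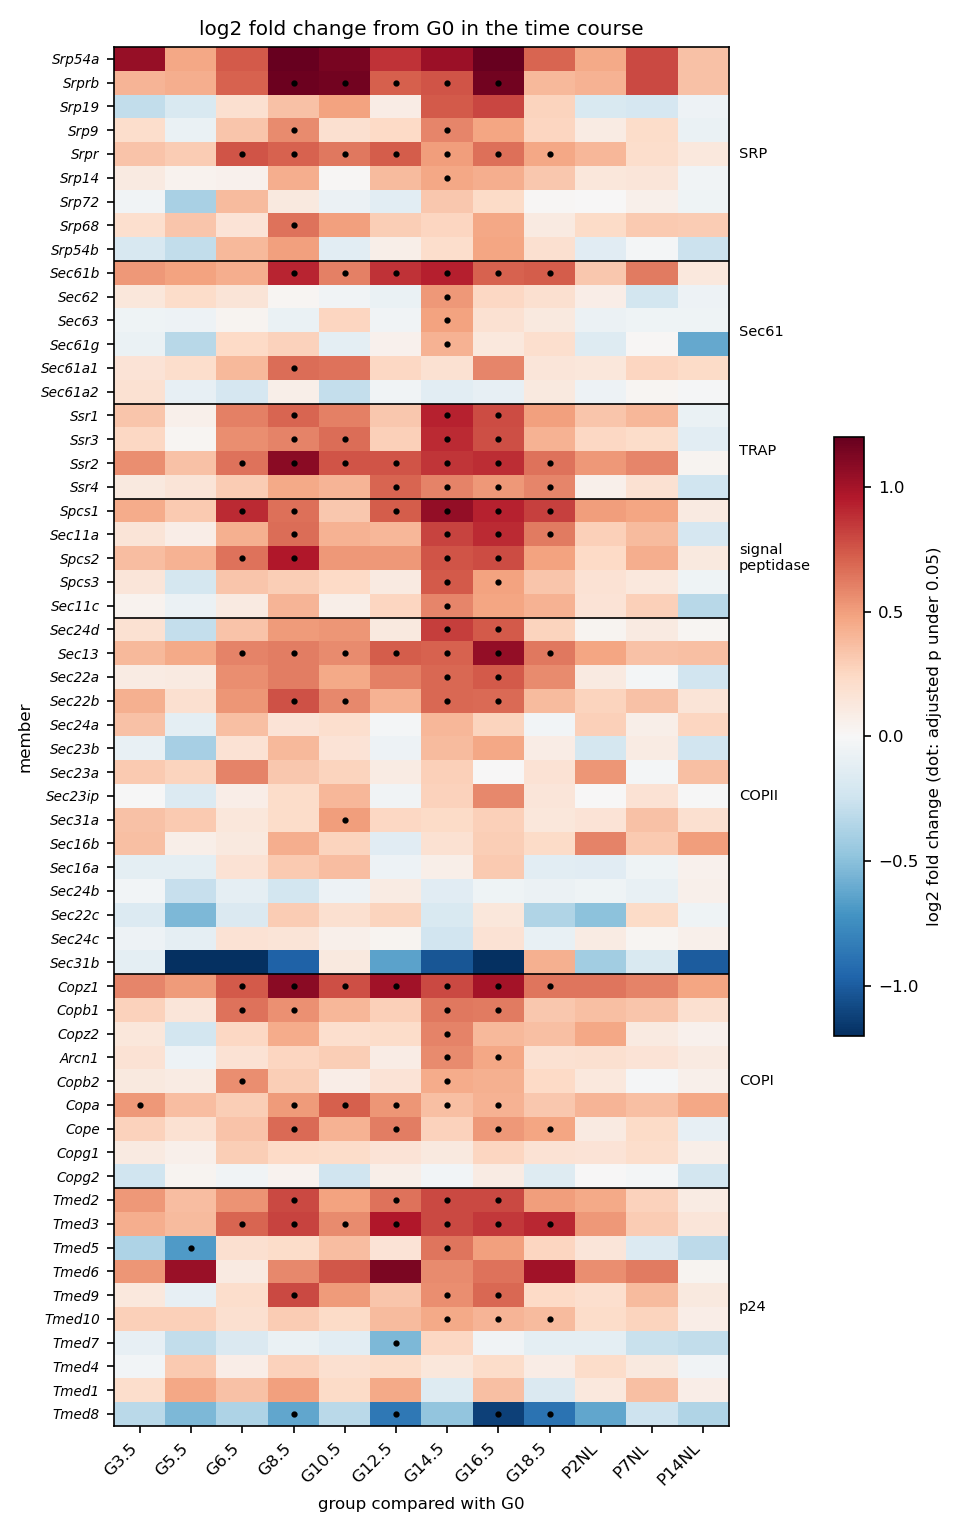
Fitted log2 fold change against G0 of each member (rows, by class) at each stage of the time course (columns), with dots where a member was called; the colour scale ends at ±1.2. Red means higher than at G0: every called cell at G14.5 is red, and no cell after delivery holds a dot. The rows of Spcs1 (1.06) and Ssr1 (0.93) are deepest at G14.5, those of Spcs2 and Ssr2 at G8.5. Sec11c at G10.5 (0.07) is near white.

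The signal peptidase, which removes the signal peptide, rose in all its subunits. Spcs1, its small membrane subunit (chr14:30999826-31001672, minus strand, GRCm38), stood at 161 and 214 CPM in the G0 libraries and at 358, 392 and 419 CPM at G14.5, a log2 fold change of 1.06 ± 0.16 (SE) with adjusted p = 4.97e-05. The groups did not overlap, and this was the highest fold change among the called members. Sec11a, a catalytic subunit, stood at 78.01 and 82.8 CPM at G0 and at 130, 139.4 and 152.4 CPM at G14.5 (0.81 ± 0.16, adjusted p = 0.0013). Sec11c, the other catalytic subunit, went from 169 and 197 CPM to 258, 260.3 and 307 CPM (0.59 ± 0.16, adjusted p = 0.0135). Spcs2 (0.75 ± 0.16) and Spcs3 (0.74 ± 0.11) rose alike, Spcs2 from 327 and 303 to 498, 478 and 616 CPM and Spcs3 from 199 and 213 to 349, 299.6 and 380.4 CPM. All 5 subunits were thus higher in each G14.5 library than in either G0 library. The share of all genes whose groups do not overlap is not given, here or in later paragraphs. Such separation, in the same libraries as the test, therefore does not show whether members stand out. Omitting G0 replicate 1 or G14.5 replicate 3 removed the call of Sec11c. Exons of Spcs1 overlap those of Glt8d1 on the opposite strand and exons of Sec11a those of Nmb on the same strand, and the sources used here do not say whether counting used strand.

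All subunits of the translocon-associated complex also rose. Ssr1, its α subunit, had 211 and 222 CPM at G0 and 397, 342 and 496 CPM at G14.5 (0.93 ± 0.17, adjusted p = 0.00036). Ssr3, the γ subunit, went from 144.4 and 176 to 303, 237 and 355 CPM (0.90 ± 0.16, adjusted p = 0.000237). Ssr2, the β subunit, had 235 and 231 CPM at G0 and 396, 413 and 456 CPM at G14.5 (0.86 ± 0.16, adjusted p = 0.000773), and Ssr4, the δ subunit, 419 and 491 against 714, 739 and 602 CPM (0.59 ± 0.14, adjusted p = 0.00693). No G14.5 library reached down to a G0 library for any of the 4 genes, a count given without the share over all genes. The call of Ssr4 was lost without G0 replicate 1.

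Of the Sec61 channel the β and γ subunits were called and the α subunits were not. Sec61b went from 306 and 294 CPM to 547, 527 and 642 CPM (0.93 ± 0.15, adjusted p = 5.63e-05), and Sec61g, the γ subunit, from 520 and 615 to 757, 652 and 867 CPM (0.42 ± 0.14, adjusted p = 0.0434). Sec61a1, which encodes the pore-forming α subunit, had 206 and 228 CPM at G0 and 206, 242 and 293 CPM at G14.5; the groups overlapped and the log2 fold change of 0.19 ± 0.18 did not pass the test (adjusted p = 0.574). Its paralog Sec61a2 stood at 14.1 and 8.37 against 10.52, 12.03 and 8.56 CPM (−0.12 ± 0.29, adjusted p = 0.852). Sec62 and Sec63, partners of the channel that serve import after translation, rose by 0.52 ± 0.15 and 0.49 ± 0.13 (adjusted p = 0.0192 and 0.0162). Omitting G0 replicate 1 or G14.5 replicate 1 removed the calls of Sec61g, Sec62 and Sec63, of which Sec61g was also lost without G0 replicate 2, G14.5 replicate 3, with DESeq2 size factors and with a replicate block, and Sec63 without G14.5 replicate 3.

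Among the 9 genes of the signal recognition particle and its receptor 4 were called, both receptor subunits among them. Srprb, the membrane anchor of the receptor, had 41.8 and 42.8 CPM at G0 and 63.2, 62.98 and 88.1 CPM at G14.5 (0.76 ± 0.20, adjusted p = 0.0131). Srpr, the subunit that docks the particle, went from 157.1 and 189 to 219, 277 and 240 CPM (0.51 ± 0.13, adjusted p = 0.00931). Of the particle itself, Srp9 and Srp14, which together bind the Alu part of its RNA and delay elongation, rose by 0.58 ± 0.15 and 0.47 ± 0.13 (adjusted p = 0.0113 and 0.0167). Srp9 had 99.8 and 112.1 CPM at G0 and 143.01, 142.4 and 191 CPM at G14.5, with no overlap. Srp19, Srp68 and Srp72 had log2 fold changes of 0.74 ± 0.26, 0.26 ± 0.14 and 0.32 ± 0.15 and were not called (adjusted p = 0.0685, 0.27 and 0.174). Srp54a and Srp54b encode near-identical copies of the GTPase subunit, between which reads may be split, so their values (1.02 ± 0.66 and 0.22 ± 0.17, not called) are uncertain. All 4 calls were absent without G0 replicate 1, those of Srprb, Srp9 and Srp14 also without G14.5 replicate 3, that of Srprb without G0 replicate 2 and that of Srp14 without G14.5 replicate 1.

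The COPII coat, which buds vesicles from the ER, changed in few of its 15 members. Sec24d, one of the cargo adaptors, had 51.6 and 56.02 CPM at G0 and 89.98, 69.8 and 127.7 CPM at G14.5 (0.83 ± 0.20, adjusted p = 0.00494). Its paralogs had log2 fold changes of 0.40 ± 0.24 (Sec24a), −0.13 ± 0.16 (Sec24b) and −0.23 ± 0.13 (Sec24c), of which none passed the test (adjusted p = 0.317, 0.686 and 0.306). Sec13, a scaffold of the outer cage, went from 80.2 and 63.2 to 94.9, 133.9 and 122.8 CPM (0.71 ± 0.15, adjusted p = 0.00151), whereas its cage partner Sec31a had 146.2 and 162 against 168, 177 and 198 CPM (0.23 ± 0.12, adjusted p = 0.232). The inner-coat gene Sec23b had 102.05 and 121.5 CPM at G0 and 130, 131.04 and 175 CPM at G14.5 (0.38 ± 0.17, adjusted p = 0.166). The other 2 called members, Sec22b and Sec22a (both 0.69 log2), belong by name only, since Sec22b is a vesicle SNARE and not a coat protein. Sec22b went from 106.8 and 107.6 to 169, 146.5 and 204 CPM (adjusted p = 0.00114). Omitting G0 replicate 1 or G14.5 replicate 3 removed the call of Sec24d, omitting G0 replicate 2 that of Sec13, and omitting either G0 library that of Sec22a.

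Of the 9 COPI genes, whose coat returns proteins from the Golgi to the ER, 6 were called. Among them Copb2 rose by 0.45 log2, and its fits with a library left out are not given here. Copz1, the ζ subunit, had 76.03 and 58.4 CPM at G0 and 105.1, 120 and 124.6 CPM at G14.5 (0.79 ± 0.16, adjusted p = 0.00145). Copb1, Copz2 and Arcn1 rose by 0.63 ± 0.13, 0.60 ± 0.18 and 0.56 ± 0.13 (adjusted p = 0.00138, 0.0302 and 0.00443), Arcn1, the δ subunit, from 112.1 and 118.99 to 171, 142.7 and 199 CPM. Copa, the α subunit, had 199 and 193 CPM at G0, 241, 229 and 287 CPM at G14.5 (0.36 ± 0.11, adjusted p = 0.0227), a call that 3 single libraries removed when left out (G0 replicate 1, G0 replicate 2 and G14.5 replicate 3). Cope, the ε subunit, overlapped between the groups with 310 and 265 against 306, 378 and 363 CPM (0.28 ± 0.14, adjusted p = 0.219), and Copg1 and Copg2 had 0.11 ± 0.12 and −0.03 ± 0.18 (adjusted p = 0.61 and 0.965). The calls of Arcn1 and Copz2 were absent without G0 replicate 1, that of Copz2 also without G14.5 replicate 3 and with a replicate block, and that of Copz1 without G0 replicate 2.

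In the p24 family 5 of 10 tested members rose and 0 fell. Tmed2 had 103.2 and 98.9 CPM at G0 and 164, 169 and 194 CPM at G14.5 (0.80 ± 0.17, adjusted p = 0.00262). Tmed3 had 235 and 294 against 380, 551 and 439 CPM (0.79 ± 0.15, adjusted p = 0.000564). Tmed10, a partner of Tmed2 in p24 complexes, went from 215 and 198 to 255, 285 and 312 CPM (0.46 ± 0.11, adjusted p = 0.0048), and Tmed5 and Tmed9 rose by 0.65 ± 0.16 and 0.56 ± 0.16 (adjusted p = 0.00967 and 0.0229). In all 5 the groups stayed apart, again without the share over all genes. Tmed6, a member known from islets, overlapped with 6.22 and 10.204 against 15.1, 12.8 and 8.34 CPM (0.57 ± 0.33, adjusted p = 0.303). Tmed8 had 74.5 and 70.6 CPM at G0 and 57.2, 37.9 and 61.7 CPM at G14.5, a log2 fold change of −0.47 ± 0.17 (adjusted p = 0.0735). Tmed5 and Tmed9 were not called without G0 replicate 1 or G14.5 replicate 3, Tmed9 also not with a replicate block, and Tmed10 not without G0 replicate 2.

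**Figure D2:**
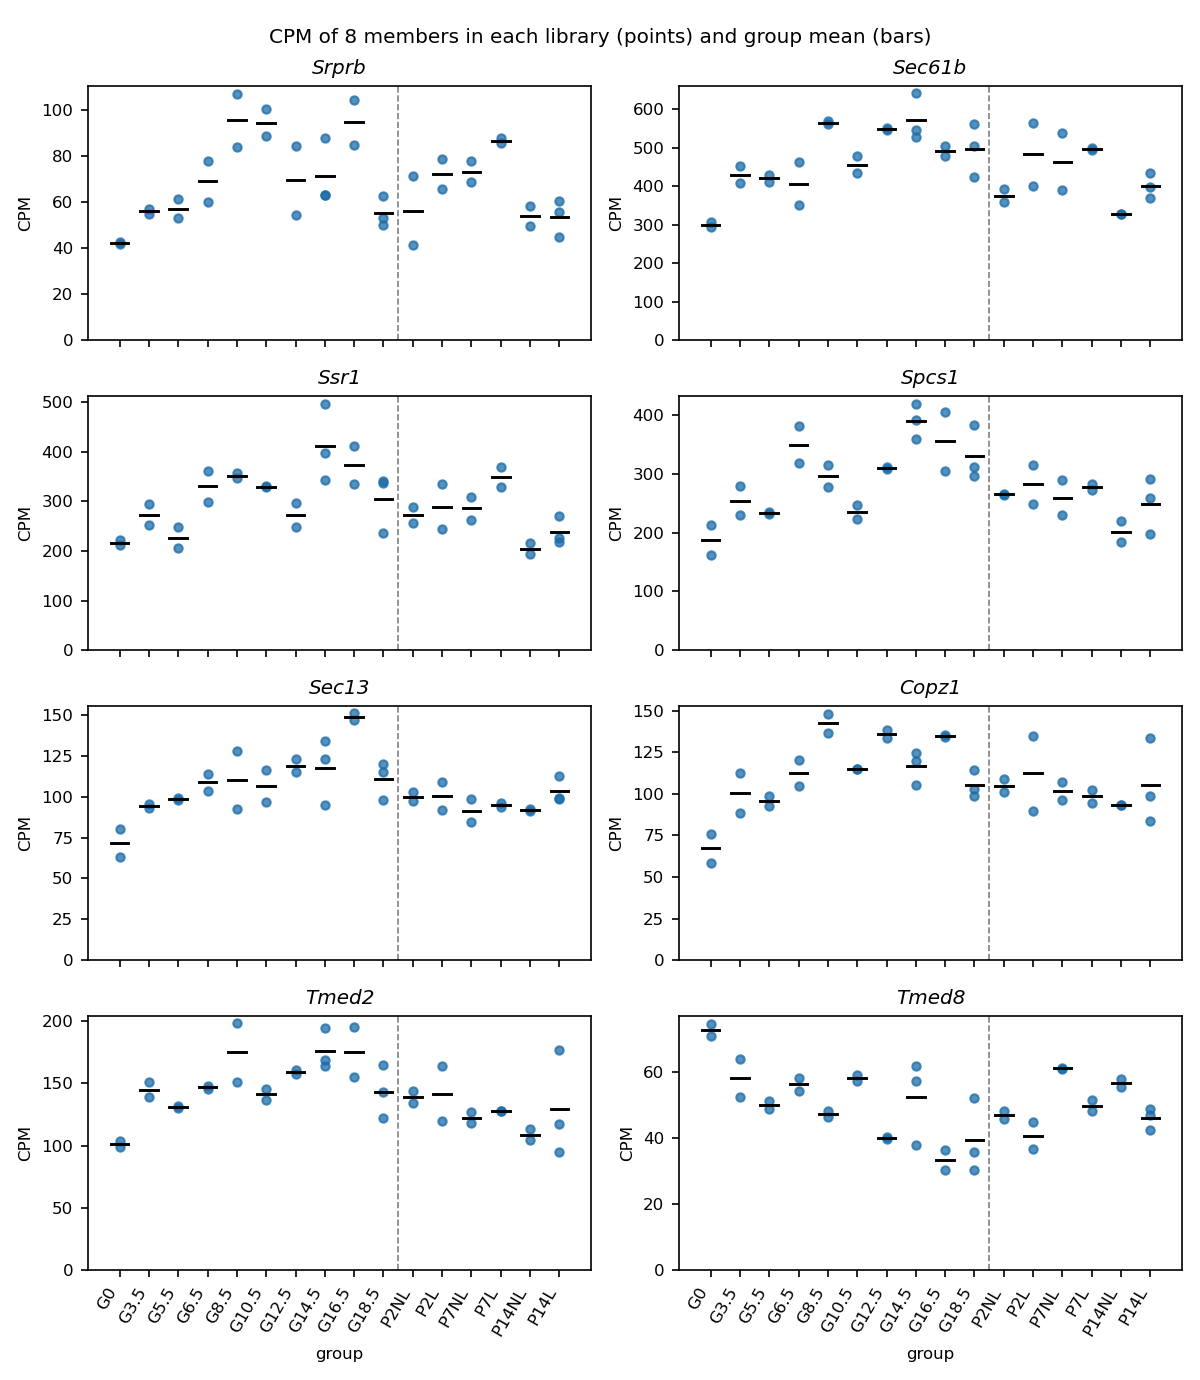
CPM (y axis) of 8 members in each library of the time course by stage (x axis); points are libraries, short bars are group means, and the dashed line marks delivery. Spcs1 went from 161 and 214 CPM at G0 to 358, 392 and 419 CPM at G14.5, while Tmed8 stood at 36.4 and 30.3 CPM at G16.5 against 74.5 and 70.6 CPM at G0.

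Called members were more abundant than the others. Their median level at G0 was 50.96 CPM per kilobase against 9.09 for the 26 tested members that were not called, and their median gene length 2871 against 3950 bases. Of the 10 tested members under 1500 bases 8 were called, of the 48 longer ones 24. Over all genes tested, 7.81% of those under 1500 bases and 5.61% of the longer ones were called higher. The part of level and length in the calls was not tested.

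The members of the pathway that lie outside the named complexes were looked at through lists, at G14.5 against G0, where 5.96% of all genes were higher and 4.15% lower. Among cargo receptors and ER retrieval genes 9 of 16 were higher and 0 lower, with a median log2 fold change of 0.64; Kdelr3 (1.88), Ergic1 (1.18), Kdelr2 (0.92) and Mcfd2 (0.87) led. Of the 12 tested genes of the oligosaccharyltransferase, which glycosylates proteins in the channel, 8 were higher and 1, Tusc3, was lower (−0.40). Its alternative subunit Magt1 was among the higher ones (0.81), with Tmem258 (0.93), Krtcap2 (0.79) and Ostc (0.72). Translocon partners and tail-anchor insertion genes had 6 higher (Dnajc3 1.00, Hspa13 0.85, Hyou1 0.75 and Tram1 0.72 foremost) and 2 lower of 16, Get4 (−0.72) and Sgta (−0.51). Of the 18 GTPases of the coats and their regulators 6 were higher, with Arf4 (0.71), Tfg (0.71), Arfgap3 (0.69) and Ctage5 (0.56), and of the 20 tethers and SNAREs 5, with Bet1 (0.98), Uso1 (0.58), Gorasp2 (0.50) and Rab2a (0.48). Among 11 regulators of the secretory pathway Ern1 (1.22), which senses ER stress as IRE1α, Eif2ak3 (0.89), the sensor PERK, and Creb3l1 (0.49) were higher and Creb3l2 (−0.47) lower. In the ER membrane protein complex, an insertase for membrane proteins, 0 of 11 genes passed the test, with a median of 0.15; at the share of all genes called, a list of this size would hold few calls or none. Of the 8 insulin and gestation markers 4 were higher, Tph1 (7.11), Chgb (2.43), Prlr (1.97) and Acss2 (0.53), and neither Ins1 nor Ins2 was called.

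Members were called at each of the 9 stages of gestation, in the following numbers. At G3.5 only Copa was called, higher by 0.52 ± 0.11 with 286 and 276 CPM (adjusted p = 0.0269), where 0.423% of all genes were higher; this call was absent when any of the 4 libraries was left out. At G5.5 the 1 call was Tmed5, lower by 0.68 ± 0.18 with 22.7 and 20.9 CPM (adjusted p = 0.0455; 0.592% of all genes lower), absent without G0 replicate 2 or either G5.5 library. At G6.5, 9 members were higher, led by Spcs1 (0.90 ± 0.17; 317 and 381 CPM), Srpr (0.75 ± 0.14), Copz1 (0.74 ± 0.17) and Tmed3 (0.70 ± 0.16), against 1.22% of all genes. The count fell to 3 without either G0 library and to 5 and 2 without the first and second G6.5 library. Markers of δ cells differed between those 2 libraries: the lower sum was 173 CPM and the higher 3867 CPM, given by size and not by replicate number. Without the cells that had over 5% of their reads in other hormones, the count of members stayed within 1.5 times its value. Apart from that refit, the part of δ-cell markers in the count was not tested.

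By G8.5 the number had grown to 21 higher and 1 lower, with 3.69% of all genes higher and 2.09% lower. Srprb led with 107.2 and 84.1 CPM (1.18 ± 0.22, adjusted p = 0.000994), then Ssr2 with 512 and 474 CPM (1.08 ± 0.18), Copz1 with 148.1 and 136.6 CPM (1.08 ± 0.18) and Spcs2 with 646 and 579 CPM (0.96 ± 0.17). Sec61a1 and Cope, not called at G14.5, were higher here at 346 and 345 CPM (0.67 ± 0.20, adjusted p = 0.0371) and at 493 and 426 CPM (0.68 ± 0.15, adjusted p = 0.00517). Single libraries mattered: G0 replicate 1, when omitted, left 13 of the 22 calls, G0 replicate 2 left 11, and the first G8.5 library left 7. At G10.5, 11 were higher (1.90% of all genes), with Srprb (1.16 ± 0.22), Copz1 (0.77 ± 0.17), Ssr2 (0.75 ± 0.18) and Copa (0.72 ± 0.11) first; 4 calls were left without either G0 library and 2 and 5 without the first and second of G10.5. At G12.5, 12 were higher (3.28% of all genes), led by Copz1 (1.01 ± 0.18), Tmed3 (0.96 ± 0.16), Sec61b (0.87 ± 0.16) and Ssr2 (0.75 ± 0.18). Tmed8 (−0.86 ± 0.19) and Tmed7 (−0.53 ± 0.14) were lower there, among 1.75% of all genes. The 14 calls became 7 without G0 replicate 2 and 4 without G12.5 replicate 2.

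At G16.5, 24 members were higher and 1 lower, beside 4.48% and 2.76% of all genes. Srprb (1.16 ± 0.22; 104.4 and 84.8 CPM), Sec13 (1.05 ± 0.16; 150.8 and 146.9 CPM), Copz1 (1.00 ± 0.18) and Spcs1 (0.92 ± 0.17) led. Without G0 replicate 1, G0 replicate 2 or G16.5 replicate 2 the 25 calls became 15, 13 and 14. At G18.5, 11 were higher (3.27% of all genes) and 1 lower (1.50%). Tmed3 was first with 471, 469 and 543 CPM (0.90 ± 0.15, adjusted p = 0.000134), followed by Spcs1 (0.82 ± 0.16), Sec61b (0.72 ± 0.14) and Ssr2 (0.65 ± 0.16). The 12 calls became 5, 6 and 5 without G0 replicate 1, G0 replicate 2 and G18.5 replicate 3. The 1 lower member at G8.5, G16.5 and G18.5 was Tmed8, with 48.1 and 46.3, 36.4 and 30.3, and 30.4, 51.9 and 35.6 CPM. Its log2 fold changes were −0.62 ± 0.19, −1.12 ± 0.19 and −0.88 ± 0.17. All stages share the 2 G0 libraries, so their counts are not independent of each other.

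After delivery no member was called in mice marked NL. Against G0 the members' medians were 0.17 at P2, 0.21 at P7 and 0.04 at P14. In either direction 0.572%, 0.462% and 0.280% of all genes were called. At an unadjusted p under 0.05 in edgeR were 13, 15 and 6 of 58 members, beside 1636, 1763 and 1533 of 15373 genes. Summed CPM of all members was 8096 ± 681, 8385 ± 533 and 7031 ± 80.5 in these groups (SD, n = 2), the last against 7046 ± 369 at G0. DESeq2 called 2, 5 and 2 members. In edgeR 1 call appeared at P7 without P7NL replicate 1 and 1 at P14 without G0 replicate 1. Between L and NL mice of the same day 0 members were called at P2, P7 and P14 (0.124%, 0.839% and 0.722% of all genes), and 0 in DESeq2. At an unadjusted p under 0.05 in edgeR were 3, 9 and 8 of 58 members, beside 755, 1121 and 1419 of 15373 genes. The members' medians were 0.09, 0.10 and 0.04. Over the 16 groups, 19 members had their highest mean at G14.5, 13 at G8.5 and 7 each at G6.5 and G16.5, and of the 58 members with reads 19 had their lowest at G0, 13 at G5.5 and 10 at P14NL.

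**Figure D3:**
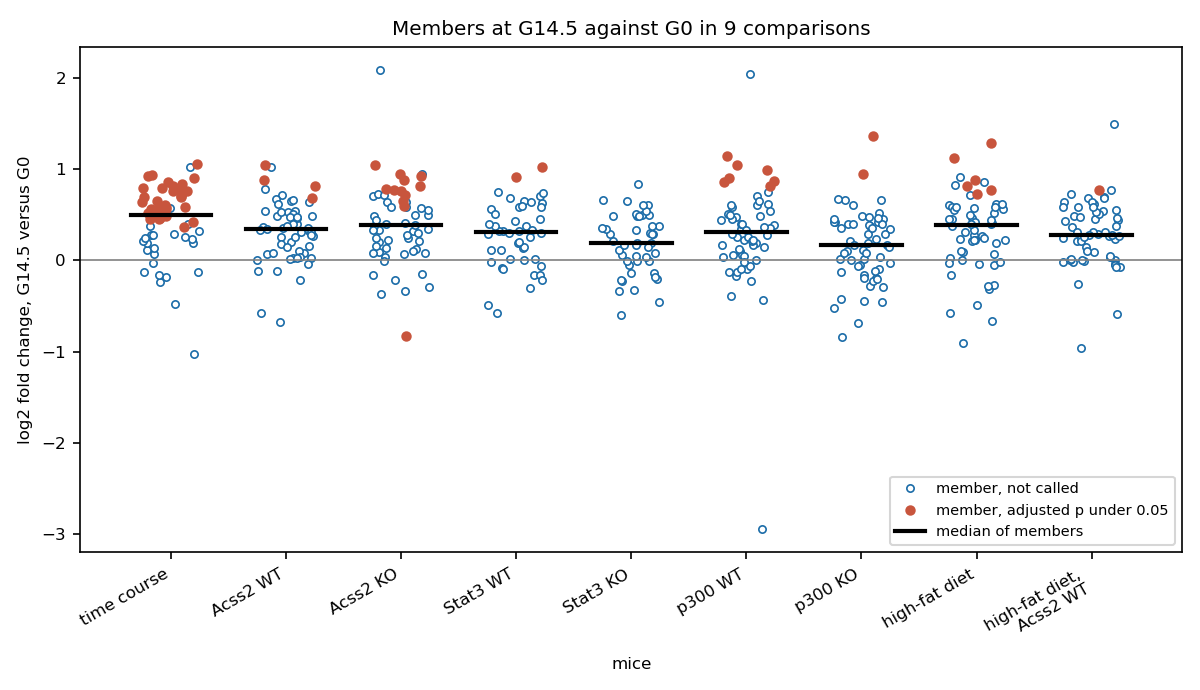
Fitted log2 fold change of G14.5 against G0 (y axis) of each tested member in the time course and in 8 other sets of mice (x axis); each point is a member, filled where it was called, and the bar is the median. The medians run from 0.17 in p300 knockouts to 0.50 in the time course.

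The comparison of G14.5 with G0 could be repeated in other libraries. In Acss2 WT mice 4 members were higher (2.01% of all genes): Sec22a (1.04 ± 0.20), Spcs1 (0.87 ± 0.16), Tmed3 (0.81 ± 0.20) and Sec11c (0.68 ± 0.16). Spcs1 had 155.2 and 196 CPM at G0 and 350 and 294 CPM at G14.5. In Acss2 knockouts 11 were higher and Tmed8 was lower (−0.83 ± 0.18; 54.7 and 62.8 against 31.9 and 34.02 CPM), beside 2.86% and 1.49% of all genes. Sec61b (1.04 ± 0.20), Tmed3 (0.95 ± 0.20), Sec13 (0.93 ± 0.19) and Spcs1 (0.87 ± 0.16) led, Sec61b with 313 and 304 CPM at G0 and 649 and 620 CPM at G14.5. Single libraries moved both counts, the 12 of the knockouts to 7 and 0 when the first and the second G0 library were omitted and to 0 and 3 for those of G14.5. The 4 of the WT mice became 0 with the first G0 library omitted and 2 with the first of G14.5.

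In the Stat3 set, whose deposited table holds 47 of the members (46 tested), Spcs1 (1.03 ± 0.23; 199 and 162 against 339 and 397 CPM) and Tmed3 (0.91 ± 0.17; 310 and 292 against 533 and 595 CPM) were higher in WT mice, where 1.26% of all genes were higher. Leaving out 1 library gave 0 or 1 calls, 1 without G14.5 replicate 1 and 0 without any other. In Stat3 knockouts 0 members were called (1.70% of all genes in either direction), and DESeq2 called 3. In edgeR 11 of 46 members had an unadjusted p under 0.05, beside 1414 of 10207 genes. The edgeR count of calls moved when G0 or G14.5 replicate 2 was left out. Spcs1 had 187 and 253 CPM at G0 and 491 and 294 CPM at G14.5 there, apart but with a wide spread. In p300 WT mice 7 were higher (1.25% of all genes), led by Srp54b (1.14 ± 0.23), Sec61b (1.04 ± 0.20), Tmed5 (0.99 ± 0.19) and Sec11c (0.91 ± 0.16). Srp54b had 18.4 and 20.1 CPM at G0 and 51.8 and 33.1 CPM at G14.5. Its value is uncertain, since reads may be split with Srp54a. In p300 knockouts Tmed5 (1.36 ± 0.19; 32.6 and 26.3 against 74.4 and 76.9 CPM) and Ssr1 (0.94 ± 0.15; 182 and 185 against 338 and 366 CPM) were higher, among 2.14% of all genes. The 7 became 4, 14 and 1 without G0 replicate 1, G0 replicate 2 and G14.5 replicate 1, and the 2 became 1 without either G0 library. In both p300 groups the α-cell, δ-cell and PP-cell lists held lower markers at G14.5 (3, 1 and 2 markers lower in WT, 2, 1 and 2 in knockouts), with summed α markers of 1289 to 2697 CPM at G0 and 561 to 780 CPM at G14.5 in WT mice; their part in the members' calls was not tested.

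On high-fat diet 6 members were higher at G14.5 than at G0 (1.22% of all genes). Ssr2 had 238 and 192 CPM at G0 and 436, 480 and 648 CPM at G14.5 (1.28 ± 0.27), Srprb 36.9 and 40.0 against 65.03, 69.4 and 115.9 CPM (1.12 ± 0.24), Tmed3 351 and 285 against 528, 570 and 654 CPM (0.88 ± 0.19) and Spcs2 265 and 329 against 423, 520 and 617 CPM (0.81 ± 0.20). The groups stayed apart for each of these, and the share of all genes that did so is not given. Slc2a2, Iapp and Slc7a2 were lower, and summed α markers were 2221 to 2834 CPM at G0 and 2786 to 8875 CPM at G14.5, whose part was not tested. Omitting G0 replicate 1 left 1 call, and omitting G0 replicate 2 or G14.5 replicate 3, or adding a replicate block, left 0. In high-fat-diet Acss2 WT mice only Sec13 was higher (0.77 ± 0.18; 70.3 and 89.4 against 119.4 and 152.1 CPM; 1.38% of all genes), and omitting the first or second library left 0 or 5 calls for G0 and 2 or 0 for G14.5. At P7NL on high-fat diet Tmed3 was the 1 member lower than at G14.5, with 300 and 287 CPM (−0.99 ± 0.19, adjusted p = 0.00993; 0.956% of all genes lower), and 0 were called without either P7NL library.

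The members called in the time course can be followed into these sets, which hold other libraries. Of the 32 called, 32 of 32 tested had a positive fold change in Acss2 WT, in Acss2 knockout and in p300 WT mice, 26 of 26 in Stat3 WT, 24 of 26 in Stat3 knockouts, 25 of 32 in p300 knockouts, 30 of 32 on high-fat diet and 29 of 32 in high-fat-diet Acss2 WT mice. Their median log2 fold changes were 0.44, 0.52, 0.46, 0.53, 0.30, 0.31, 0.45 and 0.46 in that order. Of the members not called in the time course, 20, 18 and 15 of 26 were positive in the first 3 of these groups and 10 of 20 in Stat3 WT mice, with medians of 0.09, 0.22, 0.05 and −0.002.

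No interaction of genotype with gestation was called for any member. The test asked whether the change from G0 to G14.5 differed between knockout and WT. In it 0 members passed for Acss2 (0.0213% of all genes called), Stat3 (0% of all genes) and p300 (0.0668% of all genes). An unadjusted p under 0.05 in edgeR was found for 1 of 58, 2 of 46 and 10 of 58 members. Over all genes it was found for 855 of 14057, 809 of 10207 and 1399 of 13475. DESeq2 called 0 members in each. The members' medians of this difference were 0.04, −0.11 and −0.20. For p300 the lowest adjusted p of any member was 0.354.

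Direct comparisons of knockout and WT mice gave few calls. At G0 in the p300 set 3 members were higher in the knockouts, where 0.475% of all genes were higher: Srp19 (1.14 ± 0.24; 85.6 and 78.5 against 26.3 and 47.8 CPM), Srprb (1.00 ± 0.18; 86.5 and 81.2 against 38.5 and 45.1 CPM) and Sec23b (0.83 ± 0.17; 150.9 and 135.1 against 71.98 and 88.7 CPM). All 9 genes of the signal recognition particle and its receptor were positive in this comparison, with a median of 0.68, a class singled out after its values were seen. The difference of the p300 genotypes in their change to G14.5 uses these same G0 libraries, and there all 9 were negative (median −0.43). Of the cell-type markers C1qa and Ahsg were lower. The 3 calls became 0 without either knockout library, and 1 and 5 without the first and second WT library. At G14.5 no p300 comparison passed for any gene (0% of all genes), and DESeq2 called 1 member. In edgeR 7 of 58 members had an unadjusted p under 0.05, beside 1333 of 13475 genes.

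For Acss2, 0 members were called at G0 (0.00711% of all genes) and G14.5 (0.0213%), and DESeq2 called 0. At an unadjusted p under 0.05 in edgeR were 1 and 10 of 58 members, beside 375 and 1472 of 14057 genes. At G18.5, where 0.149% of all genes were called, again 0 members passed. Of the 58 members 49 were negative, while 50.8% of all genes tested were positive. DESeq2 called 15 members, and without its share over all genes this count does not show whether they stand out. An unadjusted p under 0.05 in edgeR was found for 26 of 58 members and 1536 of 14057 genes. The members' median was −0.35. All 5 signal peptidase, 4 translocon-associated and 9 signal recognition genes were negative, classes singled out after their values were seen. Summed CPM of the members was 7385 ± 1169 in the knockouts and 10151 ± 727 in the WT mice (SD, n = 2). Of all reads the members took 0.760% and 0.914% in the knockouts and 0.989% and 0.759% in the WT mice. Outside Ins1 and Ins2 these shares were 1.73% and 2.04% against 2.34% and 2.51%. In WT replicate 2 Ins1 and Ins2 took 69.8% of the reads. Its TMM factor was 0.712, against 1.03 in WT replicate 1 and 1.16 and 1.11 in the knockouts. Chosen after their values were seen, Srp19 had −0.91 (adjusted p = 0.063) and Ssr1 −0.80 (adjusted p = 0.0738). Without knockout replicate 2 or WT replicate 1 there were 3 and 2 calls. Summed α-cell markers were 553 to 1662 CPM in the knockouts and 391 to 575 CPM in the WT mice, and δ-cell markers 222 to 232 and 57.04 to 116.9 CPM. Their part in the lower values was not tested.

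Stat3 knockouts differed from WT mice in 0 members at G14.5 (0.00980% of all genes) and at G18.5 (0.0196%), and DESeq2 called 0. At an unadjusted p under 0.05 in edgeR were 3 and 0 of 46 members, beside 875 and 507 of 10207 genes. On high-fat diet at G14.5 the Acss2 knockout also gave 0 calls (0.0638% of all genes), and DESeq2 called 0. High-fat against standard diet in Acss2 WT mice gave 0 calls too (0.213% of all genes), and DESeq2 called 3. In that order 8 and 14 of 58 members had an unadjusted p under 0.05 in edgeR, beside 1195 and 1733 of 14115 genes. These counts of 0 do not show equal levels.

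In cultured islets members were lower with A485 than with vehicle in maternal serum. Against vehicle 11 of 58 were lower and 0 higher, beside 2.60% of all genes lower. Tmed6 changed most, from 39.4 and 50.3 CPM to 6.44 and 9.21 CPM (−2.52 ± 0.51, adjusted p = 0.0207), followed by Sec22c with 9.55 and 20.3 against 5.10 and 3.43 CPM (−1.81 ± 0.43, adjusted p = 0.045). Tmed3 went from 641 and 716 to 296 and 422 CPM (−0.92 ± 0.16, adjusted p = 0.012) and Srp19 from 81.5 and 79.1 to 37.9 and 49.9 CPM (−0.87 ± 0.17, adjusted p = 0.0183). In all 4 the treated libraries lay below the vehicle libraries, and the share of all genes that did so is not given. The other 7, Spcs3, Srp9, Sec61b, Ssr4, Sec61g, Tmed2 and Srpr, had log2 fold changes from −0.85 to −0.56. No COPI gene was called (median −0.04 over 9), and of the 15 genes listed with COPII only Sec22c, of the SNARE-related Sec22 genes, was called.

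Summed CPM of the members was 10153 ± 635 with vehicle and 7567 ± 719 with A485 in maternal serum (SD, n = 2). As a share of the reads that are not Ins1 or Ins2 the members took 1.80% and 1.52%. Of all reads they took 0.850% and 1.08% with vehicle and 0.941% and 1.01% with A485, which overlap. The TMM factors that scale the library sizes were 0.876 and 1.02 with vehicle and 1.33 and 1.25 with A485. Ins1 (−1.11 ± 0.11) and Ins2 (−0.71 ± 0.14) fell as well, with Slc2a2 and Iapp, so 4 of 7 β-cell markers were lower. Of the 16 cargo receptors and ER retrieval genes 3 were lower, Lman1 (−0.68), Surf4 (−0.64) and Ergic1 (−0.62), and 1 was higher, Ergic3 (0.66), beside 2.60% of all genes lower and 0.701% higher. Lower were also 1 of 18 coat GTPases and regulators, Arfgap3 (−0.82), 1 of 20 tethers and SNAREs, Gorasp2 (−0.56), and 2 of 10 tested regulators of the secretory pathway, Ern1 (−1.44) and Creb3l1 (−0.79). Of the 12 oligosaccharyltransferase genes, 16 translocon partners and 11 genes of the ER membrane protein complex 0 were called. The count of 11 became 0 without A485 replicate 1 and 6 without vehicle replicate 2, and it was 20 with DESeq2. Of the 32 members called at G14.5, 8 were lower with A485 and 4 had a positive fold change (median −0.40). Of the 26 not called at G14.5, 3 were lower with A485 and 8 were positive (median −0.22).

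**Figure D4:**
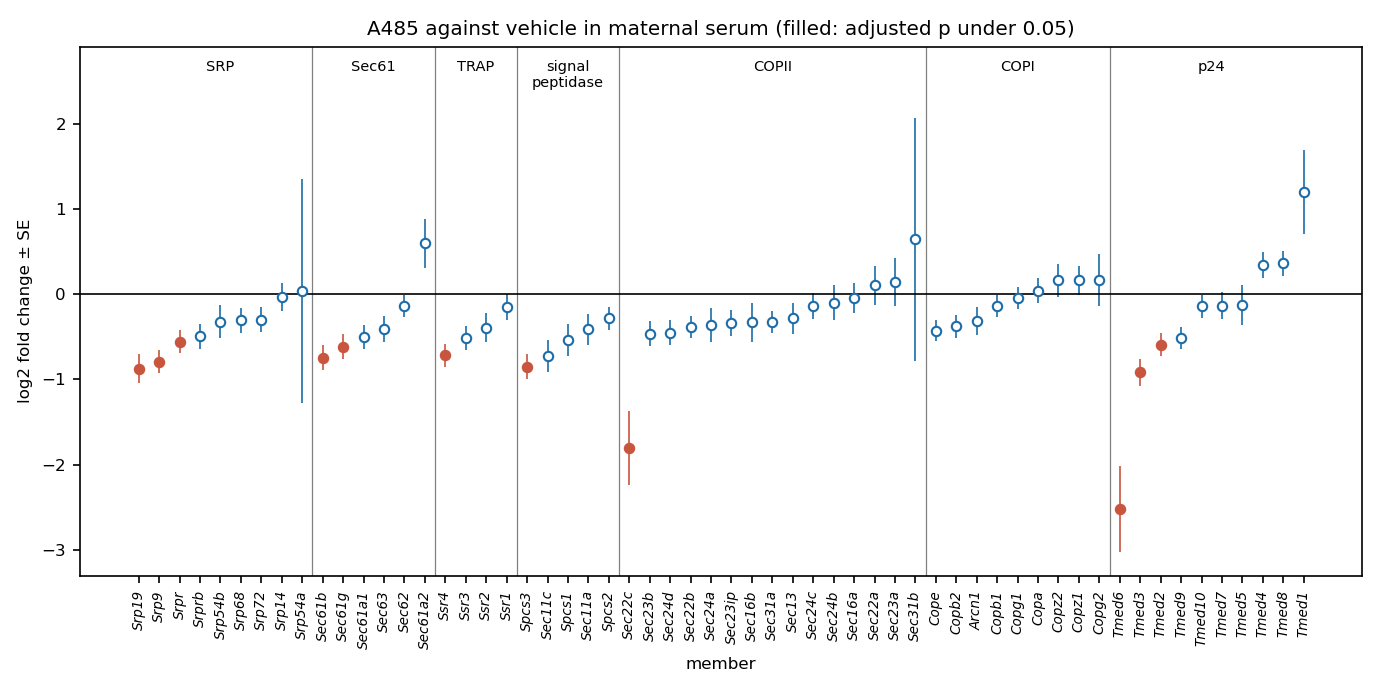
Log2 fold change of A485 against vehicle in maternal serum (y axis) with its SE (lines) for each tested member (x axis, by class); filled points are the 11 called members. Tmed6 lies lowest at −2.52, and no COPI gene is filled.

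Maternal against normal serum called Tmed3 alone. In the A485 experiment's vehicle islets Tmed3 had 641 and 716 CPM in maternal and 352 and 383 CPM in normal serum (0.88 ± 0.16, adjusted p = 0.0366; 0.516% of all genes higher). The call was lost without any library but maternal replicate 1, whose omission gave 2 calls. Ins2, Slc7a2 and Sst were lower in maternal serum here. This comparison and that of A485 share the vehicle libraries in maternal serum. In the vehicle islets of the nifuroxazide experiment 0 members were called (1.02% of all genes in either direction), and DESeq2 called 6. In edgeR 12 of 58 members had an unadjusted p under 0.05, beside 1303 of 13481 genes. The edgeR count of calls moved without maternal replicate 1. Tmed3 there had 635 and 802 CPM in maternal and 648 and 543 CPM in normal serum, which overlap. Nifuroxazide against vehicle in maternal serum gave 1 call, again Tmed3, lower at 443 and 405 CPM (−0.76 ± 0.16, adjusted p = 0.0485; 0.356% of all genes lower). It was absent without vehicle replicate 2, without either nifuroxazide library and with a replicate block.

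Tmed3 (chr9:89699206-89705068, minus strand, GRCm38) was thus called in more comparisons than any other p24 gene. In the time course it was higher than at G0 at every stage from G6.5 to G18.5, with means from 391 CPM at G10.5 to 515 CPM at G12.5 against 264 CPM at G0. At G14.5 in Stat3 knockouts it had 401 and 388 CPM against 276 and 369 CPM at G0 (0.29 ± 0.17, adjusted p = 0.477), and in p300 WT mice 393 and 374 against 269 and 275 CPM (0.50 ± 0.15, adjusted p = 0.0994). Neither of these passed, and the genotype comparisons at G14.5 were not called either (−0.52 ± 0.17 for Stat3, adjusted p = 0.424; −0.23 ± 0.14 for p300, adjusted p = 0.642).

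**Figure D5:**
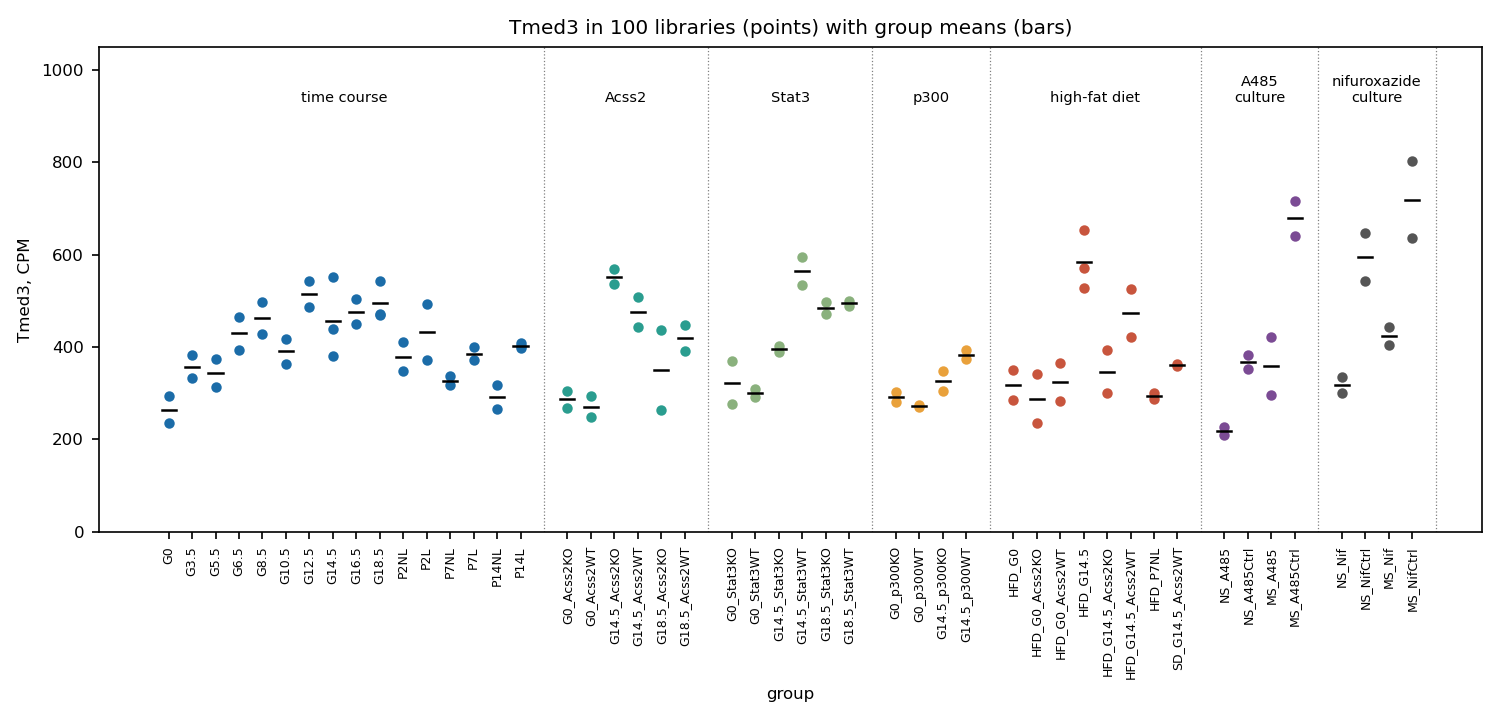
CPM of Tmed3 (y axis) in every library of the 7 sets, with 1 column for each group (x axis), 1 point for each library and a bar at the group mean. In the time course its G0 libraries stand at 235 and 294 CPM and its G12.5 libraries at 487 and 543 CPM.

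Promoters were read because many members moved together. RefSeq (GRCm38.p6) gave the 250 bases before a transcription start for 49 of 59 members. The core ACGTG, part of sites bound by the unfolded-protein-response factors XBP1 and ATF6, was found on either strand in 24 of 49 members (48.98%), in 18.49% of 27025 genes with a promoter and in 23.8% of the 11370 of them tested in the time course. It lay in 14 of the 27 called members with a promoter and in 10 of the remaining members among the 49. Whether the motif goes with the calls was not tested. The longer TGACGTG, which contains ACGTG, was in 4 members (8.16%), in 1.85% of all genes and in 2.50% of those tested. The element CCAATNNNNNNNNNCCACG was in 0 members and in 0.130% of all genes, CCAAT in 38.8% and 37.5%, the STAT letters TTCNNNGAA in 10.204% and 8.13%, TGATGNAA in 0% and 3.91%, and the GC box GGGCGG in 63.3% and 35.4% (59.6% of tested genes). A match is a description of letters, and binding was not measured.

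The 4 promoters with TGACGTG are shown, with those of Ssr1 and Tmed3, which hold ACGTG and whose genes carry much of the results; each ends at the base before the start, and capitals mark the motif, in the Copb1 and Ssr1 lines also its reverse complement. Coordinates are GRCm38, with Srpr at chr9:35210953-35211202 (plus strand), Sec24d at chr3:123267246-123267495 (plus), Copb1 at chr7:114254681-114254930 (minus), the first start of Sec16b at chr1:157506546-157506795 (plus), Ssr1 at chr13:37994209-37994458 (minus) and Tmed3 at chr9:89705044-89705293 (minus).
Srpr: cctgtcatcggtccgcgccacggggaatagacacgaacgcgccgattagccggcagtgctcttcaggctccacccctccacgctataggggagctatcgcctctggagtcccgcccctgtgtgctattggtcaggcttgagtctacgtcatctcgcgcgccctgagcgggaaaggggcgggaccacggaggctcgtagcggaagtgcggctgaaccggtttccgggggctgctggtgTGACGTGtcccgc
Sec24d: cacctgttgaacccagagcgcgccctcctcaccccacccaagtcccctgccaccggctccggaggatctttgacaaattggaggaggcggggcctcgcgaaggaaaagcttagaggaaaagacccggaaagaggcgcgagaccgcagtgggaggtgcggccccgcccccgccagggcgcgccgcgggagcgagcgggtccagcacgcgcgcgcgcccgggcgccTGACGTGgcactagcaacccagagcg
Copb1: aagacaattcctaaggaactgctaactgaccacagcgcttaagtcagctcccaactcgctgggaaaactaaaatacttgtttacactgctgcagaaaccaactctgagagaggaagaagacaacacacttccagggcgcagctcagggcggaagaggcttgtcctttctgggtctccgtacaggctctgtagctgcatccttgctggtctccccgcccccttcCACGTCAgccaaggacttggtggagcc
Sec16b: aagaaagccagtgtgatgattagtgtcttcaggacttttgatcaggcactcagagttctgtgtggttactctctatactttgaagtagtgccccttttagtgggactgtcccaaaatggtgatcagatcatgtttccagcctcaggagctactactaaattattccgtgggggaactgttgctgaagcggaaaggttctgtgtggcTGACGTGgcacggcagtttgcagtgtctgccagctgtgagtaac
Ssr1: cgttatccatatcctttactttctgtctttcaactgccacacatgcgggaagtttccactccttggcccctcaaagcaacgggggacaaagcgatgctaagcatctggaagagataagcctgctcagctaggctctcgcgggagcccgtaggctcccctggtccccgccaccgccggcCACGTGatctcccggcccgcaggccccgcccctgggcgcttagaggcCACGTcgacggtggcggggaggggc
Tmed3: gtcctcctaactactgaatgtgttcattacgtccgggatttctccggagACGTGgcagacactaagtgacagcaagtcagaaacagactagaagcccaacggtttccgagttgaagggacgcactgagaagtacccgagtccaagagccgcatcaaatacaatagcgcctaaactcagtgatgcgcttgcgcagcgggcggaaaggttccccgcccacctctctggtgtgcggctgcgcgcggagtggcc
In Srpr, Sec24d, Copb1 and Sec16b the motif begins 13, 26, 27 and 44 bases before the start. Srpr, Sec24d and Copb1 were called at G14.5 (0.51, 0.83 and 0.63 log2) and Sec16b, a scaffold of ER exit sites, was not (0.18 ± 0.17, adjusted p = 0.571). Ssr1 holds 3 matches to ACGTG, beginning 72, 71 and 25 bases before its start, of which the first 2 overlap on opposite strands, and Tmed3 holds 1, beginning 201 bases before its start.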

How the data were processed

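The deposited values are raw read counts per gene and cell, whole numbers, from Smart-seq3xpress libraries of cells sorted into 384-well plates, per the labels' protocols. Trimmomatic 0.39, featureCounts 2.0.1 and the build GRCm38 are named in the submitters' processing notes. For aligner, annotation, strand use and duplicate removal nothing is stated in the labels or notes. The counts are of reads, several of which can stem from 1 molecule. Within a replicate of a group the counts of all cells were added up, and each of the 7 tables was fitted on its own with all its groups, so levels are compared within a table only.

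Genes were filtered with filterByExpr, scaled by TMM and tested with edgeR 4.0.16 (glmQLFit and glmQLFTest, R 4.3.3) in 40 comparisons, with Benjamini-Hochberg adjustment over all genes of a comparison and a threshold of 0.05. The SE of a log2 fold change is its size divided by the square root of F. CPM uses TMM-scaled library sizes, and CPM per kilobase the gene length in the deposited tables. The Stat3 table holds 12791 usable genes and 47 members, and 12 further members were not analysed there. The 2 droplet samples were not analysed here.

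Members and lists were chosen with earlier results of these data known. Named members are 19 fixed ones at G14.5, up to 4 called members per class there, and up to 4 called per direction elsewhere; list genes are the up to 4 called with the highest change. Copb2, Tmed8, Srp19, Srp68, Srp72, Srp54a, Srp54b, Sec61a2, Sec24a, Sec24b, Sec24c, Copg1, Copg2 and Sec16b at G14.5, Sec61a1 and Cope at G8.5, Spcs1 in Stat3 knockouts, and Tmed3 where it was not called were named after their values were seen.

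Alternatives were DESeq2 1.42.0 (its size factors in edgeR and its Wald test), no filter on low counts, a replicate block, Ins1 and Ins2 left out, cells with over 5% of reads in other hormones left out, and each library left out in turn (94 fits). On simulated counts for G14.5 against G0, edgeR recovered 40 of 100 genes changed by 1 and 61 of 100 changed by 2 on the log2 scale, with 3 false calls among 15033 genes. For the Acss2 knockout against wild type at G14.5 it recovered 29 and 61 of 100, with 6 false calls among 13832 genes. The result of 1 cell-type marker is not reported here.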

Additional observations from a re-analysis of the deposited data

How the results depend on the processing

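Of 94 calls of named members, 30 held under every alternative and every library left out, and 0 turned direction under any. With DESeq2 size factors, without Ins1 and Ins2, and without cells rich in other hormones, all 40 counts of called members stayed within 1.5 times their value. At G14.5 the 32 calls were 31 with DESeq2 size factors, 33 with DESeq2's test, 33 with no filter and 28 with a replicate block. The causes of the changes given here were not tested. With 2 libraries a group, leaving out 1 leaves a lone sample, assumed to vary like the other groups of its table.

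With no filter on low counts the members called were 5 at G3.5, 4 at G5.5, 14 at G6.5, 18 at G10.5, 5 at P2NL, 4 at P7NL and 1 at P14NL, each against G0, and 1 each in L against NL mice at P7 and P14. For G14.5 against G0 they were 12 in Acss2 WT, 19 in Acss2 knockouts, 7 in Stat3 WT, 2 in Stat3 knockouts, 14 in p300 WT, 6 in p300 knockouts, 18 on high-fat diet and 8 in high-fat-diet Acss2 WT mice. For knockout against WT they were 1 and 9 for Acss2 at G14.5 and G18.5 and 12 for p300 at G0. High-fat-diet P7NL gave 9, A485 17, nifuroxazide 2, and the serum comparison 5 with either vehicle. The shares of all genes called with no filter are not given here. These counts thus do not show whether the members stand out.

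The shares of all genes called by DESeq2's test are not given, so its counts here and above do not show whether the members stand out. DESeq2's test called 3 at G3.5, 3 at G5.5, 19 at G18.5, 2 at P2NL, 5 at P7NL and 2 at P14NL against G0. For G14.5 against G0 it called 16 in Acss2 WT, 6 in Stat3 WT, 3 in Stat3 knockouts, 17 in p300 WT, 5 in p300 knockouts, 14 on high-fat diet and 2 in high-fat-diet Acss2 WT mice. It called 15 for Acss2 knockouts at G18.5, 14 and 1 for p300 knockouts at G0 and G14.5, 3 for diet, 4 for high-fat-diet P7NL, 20 for A485, 2 for nifuroxazide, and 7 and 6 for serum with the A485 and nifuroxazide vehicles.

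Replicate numbers did not pair the samples: the median correlation of same-numbered deviations lay between −0.012 and 0.044 over the 7 tables. The replicate block gave 1 call at P14NL, 0 for high-fat-diet G14.5, 2 for serum with the A485 vehicle and 0 for nifuroxazide, and the other counts stayed within 1.5 times.

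With 1 library left out the counts ran from 15 to 33 at G14.5, 0 to 0 at G3.5, 0 to 1 at G5.5, 2 to 5 at G6.5, 7 to 18 at G8.5, 2 to 5 at G10.5, 4 to 11 at G12.5, 13 to 19 at G16.5 and 5 to 13 at G18.5. They ran from 0 to 1 at P7NL and P14NL, 0 to 5 in Acss2 WT, 0 to 7 in Acss2 knockouts, 0 to 1 in Stat3 WT, 0 to 2 in Stat3 knockouts, 1 to 14 in p300 WT, 1 to 2 in p300 knockouts, 0 to 7 on high-fat diet and 0 to 5 in high-fat-diet Acss2 WT mice. For the Acss2 knockout at G18.5 they ran from 0 to 3, for the p300 knockout at G0 from 0 to 5, for high-fat-diet P7NL from 0 to 1, for A485 from 0 to 9, for nifuroxazide from 0 to 1 and for serum from 0 to 2 with either vehicle.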

Other observations

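High-fat-diet Acss2 knockouts at G0 and islets in normal serum with an inhibitor entered no comparison. Summed CPM of all members was 6775 ± 1322 (SD, n = 2) in high-fat-diet Acss2 knockouts at G0, beside 7463 ± 984 in the wild types. In normal serum it was 6536 ± 129.3 with A485 beside 8050 ± 384 with vehicle, and 8677 ± 593 with nifuroxazide beside 9973 ± 130.95 with vehicle. Tmed3 stood in normal serum at 210 and 226 CPM with A485 against 352 and 383 CPM with vehicle. With nifuroxazide it had 301 and 336 CPM against 648 and 543 CPM with vehicle. These differences were not tested.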
